A study of Macaca mulatta with 64 samples.

Results

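The zinc finger genes described here were the genes whose macaque symbol begins with ZNF and a digit, with ZKSCAN or with ZSCAN. The rule used the symbol, and no measured value beyond having a start position. It was set with earlier results of these data known. Of 421 genes with such a symbol in the name table, 214 had at least 1 start position and 207 had none, so the members made up 214 of the 13269 genes with a position. They comprised 200 ZNF, 3 ZKSCAN and 11 ZSCAN genes. CAGE-seq, which sequences the capped 5′ ends of RNA, had been run on 64 libraries of rhesus macaque brain. The regions were the prefrontal (PFC), posterior cingulate (PCC), temporal (TC), parietal (PC) and occipital (OC) cortices of the neocortex, 2 parts of the hippocampus, CA1 and the dentate gyrus (DG), and cerebellar cortex (CB). Healthy, untreated monkeys of 1, 4, 10 and 20 years had been sampled, 2 females and 2 males at each age, and every region of every age and sex gave 1 library made from both animals. The 8 combinations of age and sex, called animal groups here, are therefore the replicates of a region, and a library is named by its region, age and sex, such as CA1 20F for CA1 of the 20-yr-old females.

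The members were chosen by symbol, and the domains of their proteins were not examined. Genes with such symbols mostly code for C2H2 zinc finger proteins. In these, each finger is a short loop held by a zinc ion and arrays of fingers read DNA, or in some proteins RNA. Many carry a KRAB domain, which recruits the corepressor TRIM28 and, through it, histone methylation and heterochromatin proteins to transposable elements and other targets. The ZSCAN genes code for a SCAN domain, through which the proteins pair with one another, and the ZKSCAN genes code for both domains. The family expanded by repeated local duplication and is known for large clusters of related genes, above all on chromosome 19. The transcripts are usually of low abundance in most tissues, brain included.

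The deposited values are TPM, tags at single start positions scaled to the same total in every library, summed here over the positions of a gene, and a gene with no position in a library is called not listed and taken as 0. The smallest listed value ranged from 1.00 to 1.32 TPM between libraries and stood for 2 to 7 tags, so positions with fewer tags are not in the values. Libraries listed between 545 genes (CB 10F) and 8143 genes (CA1 20F). CA1 libraries listed 3805 to 8143 genes and DG libraries 1238 to 3898. Cerebellar neuron markers, of which 8 of 9 had a position, summed to 2234 to 3665 TPM in CB libraries and to at most 771 TPM elsewhere. The labels of the other regions had less support. The CA1 pyramidal markers (2 of 3 with a position) had a median of 3.5 TPM in CA1. The neocortex markers (3 of 4 with a position) had a median of 0 TPM in every neocortical region, below that in CA1. The dentate granule markers had a higher median in CB (1338 TPM) than in DG (441 TPM). Their medians in the other regions were 0 to 120 TPM. In CB their signal was mostly CALB1, also a cerebellar marker here, at a mean of 1263 TPM. Markers of microglia had 1 of 4 genes with a position and those of the choroid plexus 0 of 3. In tissue pieces, fewer cells of a type and less RNA per cell cannot be told apart.

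The members were listed in fewer libraries than other genes. The median member was listed in 3 of the 64 libraries and the median other gene in 6. Listed in at least 8 libraries were 66 members (30.8%), against 46.3% of the other genes, and these 66 are the members that could be tested. In at least 32 libraries there were 8 members (3.74%) and 14.1% of the other genes, and no member was listed in all 64, as 54 other genes were. The median of the mean level over 64 libraries was 1.62 TPM for members and 3.13 TPM for other genes, and 88 members (41.1%) and 31.3% of the other genes had a mean under 1 TPM. These shares describe the 2 sets of genes and were not tested against each other.

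The number of members listed in a library moved with the number of all genes listed there. A CA1 library listed 60.3 ± 25.2 members (SD, n = 8), from 34 to 111, and a PCC library 7.13 ± 3.44 (SD, n = 8), from 2 to 13. The other regions had means of 16.5 to 25.9 members. As a share of the genes listed, the members made up 1.07% ± 0.17 in CA1, 0.923% ± 0.220 in CB and 0.557% ± 0.128 in PCC (SD, n = 8 each). The range over all libraries was from 0.324% in PCC 10F, with 2 members among 617 genes, to 1.36% in CA1 20F, with 111 among 8143. CA1 also listed 36 members (16.8%) that no other region listed, against 0 to 6 in each other region, but of the other genes too 11.9% were listed in CA1 alone.

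**Figure D1:**
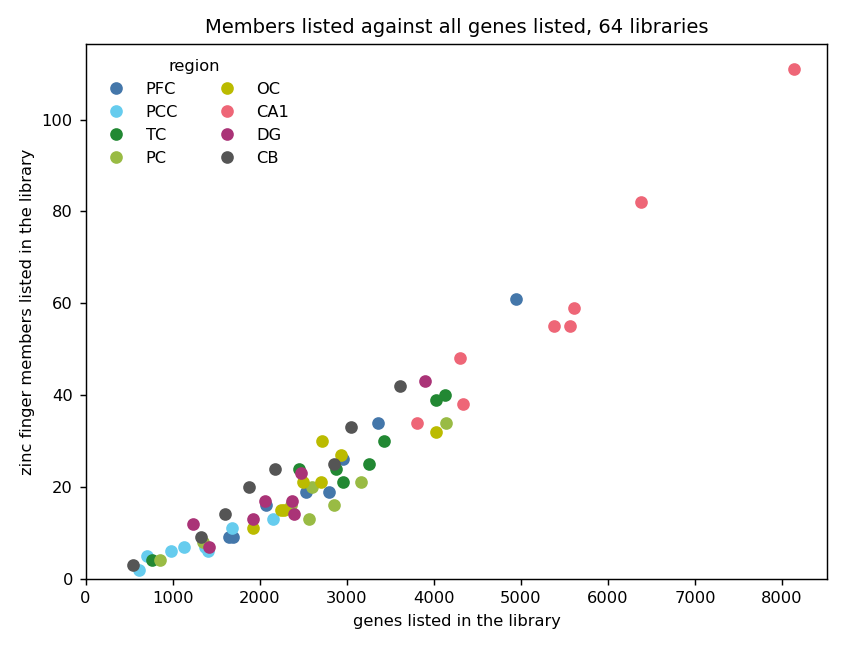
Number of zinc finger members listed (vertical) against the number of all genes listed (horizontal) in each of the 64 libraries, coloured by region. The 8 CA1 libraries list 34 to 111 members, the PCC libraries 2 to 13, and CA1 20F stands at the far end of both axes.

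A few members carried much of the summed level. The 3 highest, ZNF706, ZNF385A and ZNF581, held 25.5% of all member TPM and the 12 highest held 50.8%, and 3 members lay within the first 1000 of the 13269 genes by mean level. The plot of the members by library shows that even these genes were patchy, each with libraries at 0 in at least 1 region.

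ZNF706, a small protein with a single zinc finger that in mouse stem cells favours exit from self-renewal, had the highest mean level, 154 ± 251 TPM (SD, n = 64). It was listed in 43 libraries. The gene lies on the minus strand of chromosome 8, at 103715650 to 103724485 (MMUL 1.0, as for all positions given here). Its level in PC libraries ranged from 0 through a median of 262 to 910 TPM, and in PFC from 0 through a median of 0.975 to 165 TPM. The highest library was DG 20M at 1428 TPM, while the DG median was 14.2 TPM, so the DG mean of 229 ± 497 TPM rested on that library.

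ZNF385A, which codes for an RNA-binding partner of p53, was listed more often than any other member, in 58 libraries, with a mean of 117 ± 136 TPM (SD, n = 64). Its values were closest together in OC, from 117 through a median of 157 to 308 TPM. They ranged from 14.4 through 55.9 to 148 TPM in CA1 and from 25.8 through 41.6 to 238 TPM in PFC. All 8 libraries of PFC, TC, OC and CA1 listed the gene, and the ranges of OC and CA1 overlapped.

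ZNF581 followed with a mean of 116 ± 189 TPM (SD, n = 64) in 47 libraries. It was listed in 8 of 8 CA1 libraries, from 4.79 through a median of 81.1 to 136 TPM, but in 2 of 8 PC libraries. ZNF346, a protein that binds double-stranded RNA, had 65.7 ± 168 TPM in 35 libraries, and its highest value was 856 TPM in CB 20F. ZNF653 had 60.9 ± 99.2 TPM in 35 libraries and was highest on average in CB, with 153 ± 161 TPM (SD, n = 8). ZNF593, the counterpart of a yeast factor for export of the large ribosomal subunit, had 53.2 ± 94.4 TPM in 29 libraries and was not listed in any PCC library. For each of the 3 genes the standard deviation exceeded the mean.

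ZNF771 was listed in 50 libraries at a mean of 42.4 ± 72.2 TPM, including all 8 of PFC and of CA1. ZNF205 (46.1 ± 86.1 TPM) was listed in 32 libraries, ZNF787 (22.7 ± 50.4 TPM) in 34, and ZNF414 (30.3 ± 71.3 TPM), ZNF777 (28.8 ± 56.3 TPM) and ZNF384 (25.7 ± 81.8 TPM) in 21 to 27. The remaining member among the 12 highest was ZNF772, whose mean of 30.6 TPM came from 1 position in 1 library, at 1956 TPM in CB 10F, which listed the fewest genes of all. It was listed at 0 in the other 63 libraries and could not be tested.

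**Figure D2:**
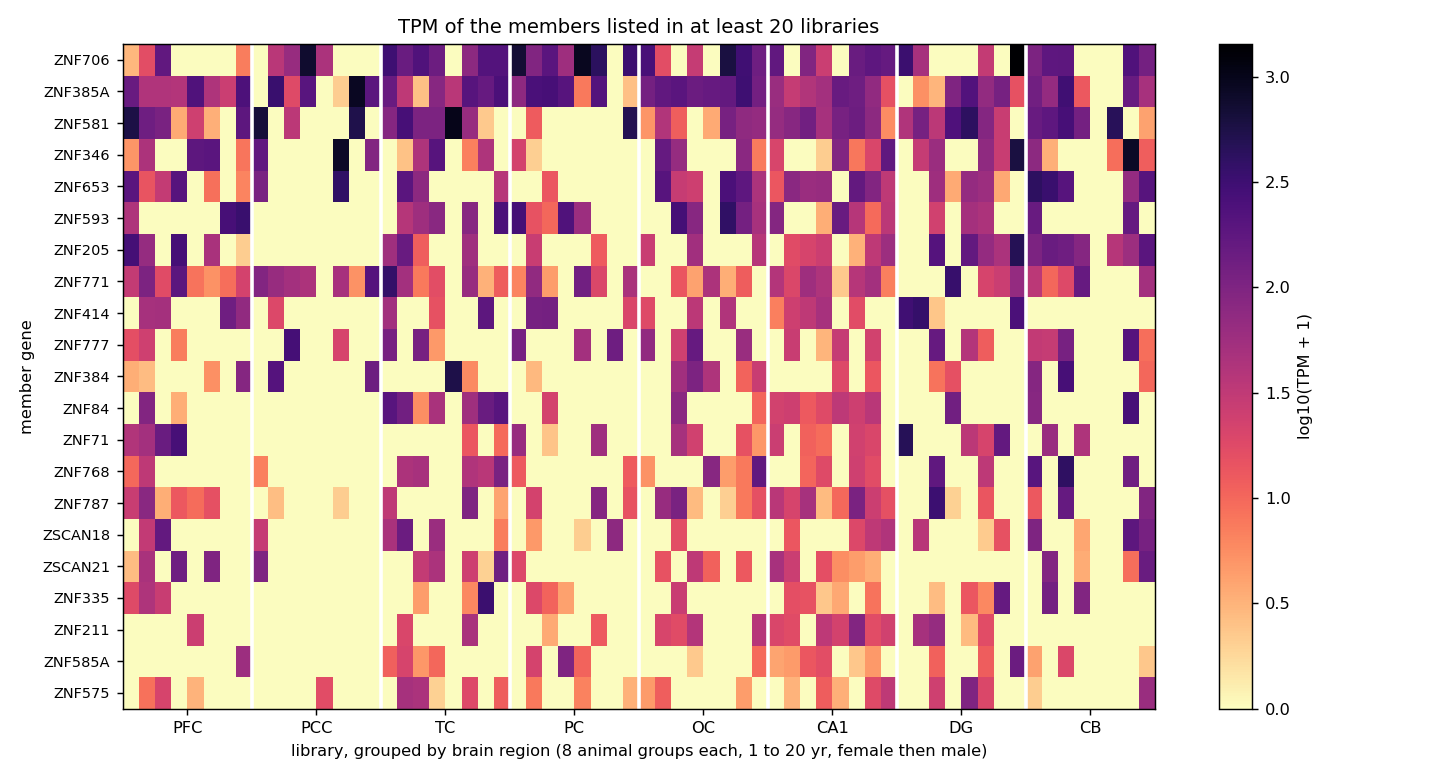
Level of the 21 members listed in at least 20 libraries (rows, highest mean at the top) in each of the 64 libraries (columns, grouped by region), as log10(TPM + 1), with pale cells not listed. ZNF385A, listed in 58 libraries, has the most even row, and high values of other members sit in single libraries.

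Much of the members' signal lay away from the annotated start of the gene. Within 500 nt of it, on either side, lay 42.3% of the members' TPM and 53.7% of that of other genes, while positions more than 5000 nt inside the gene held 45.7% and 31.8%. The main position, the one with the most TPM, was within 500 nt for 66 of 214 members (30.8%) and for 38.4% of the other genes. Among the genes that could be tested the shares were 21 of 66 (31.8%) and 45.1%. The median length was 18089 nt for members and 23612 nt for other genes, but 24217 and 18919 nt among those that could be tested. Whether length has a part in the shares was not tested.

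Members at the ends of this range differed widely. ZNF385A had 0.00% of its TPM near the start, and its main position at 51482082 on chromosome 11, listed in 23 libraries, was 23941 nt inside a gene of 24477 nt. ZNF692 also had 0.00%, with 78.5% of its TPM at 1 position 3227 nt inside the gene that 17 libraries listed. ZNF652, which codes for a transcriptional repressor, had 73.8% at a position 80454 nt inside a gene of 204367 nt. In all, 15 of the 66 members listed in at least 8 libraries had no TPM near the start. At the other end, ZNF286A had 100% of its TPM within 500 nt, ZNF791 99.7% and ZNF593 99.5%. Of the most abundant members, ZNF706 (97.2%) and ZNF346 (95%) lay near the start, and the main position of ZNF346, at 173516431 on chromosome 6, was the annotated start itself. ZNF581 had 3.16% there, with its main position 6017 nt inside the gene, and ZNF205 0.29%, at 5885 nt.

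The share near the start varied far more between libraries for members than for other genes. Over the 64 libraries it was 42.6% ± 18.9 for the members, from 0% in TC 10F to 100% in PCC 10F, and 53.5% ± 3.7 for the other genes. PCC 10F had only 2 members listed and TC 10F 4. The members' share was the higher of the 2 in 18 of the 64 libraries. The mean over 8 libraries was highest in CA1, 49.9% (SD 9.99), and lowest in PFC, 35.4% (SD 12.6), with overlapping ranges.

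Single libraries also decided most members' levels. For 144 of 214 members, 1 library held more than 50% of the gene's TPM, and this was still so for 15 of the 66 that could be tested. Of the 1450 start positions of members, 1201 (82.8%) were listed in 1 library, against 74.3% of the positions of other genes. At the other end, 28 (1.93%) were listed in at least 8 libraries, against 3.55%. No member shared a position with another gene.

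The members were concentrated on chromosome 19, which held 66 of them (30.8%) and 6.58% of all genes with a position. Chromosome 20 held 20, chromosome 3 held 14, and 3 members were on unplaced contigs. Another member lay within 50000 nt of 35 of the 66 members on chromosome 19 (53.0%) and of 38 of the 148 elsewhere (25.7%). The members on chromosome 19 had a median of the mean level of 1.16 TPM and were listed in a median of 3 libraries, and the others had 1.99 TPM and 4 libraries. Listed in at least 8 libraries were 19 of 66 (28.8%) and 47 of 148 (31.8%). ZNF581, ZNF653, ZNF414, ZNF772 and ZNF787 were the chromosome 19 genes among those with the levels given above. The authors kept reads with a single genomic location, so tags from stretches that related members share are not counted, and what this takes from the members was not tested.

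The summed level of the 214 members was 1519 ± 714 TPM per library (SD, n = 64), or 0.272% ± 0.121 of the TPM listed. By region it ran from PCC, 1181 ± 659 TPM, through PC, 1199 ± 479, OC, 1273 ± 489, CA1, 1276 ± 214, PFC, 1377 ± 550, TC, 1714 ± 356, and DG, 1809 ± 853, to CB, 2324 ± 1097 (SD, n = 8 each). Each step in this order was smaller than the standard deviations on both sides of it. The lowest library was PCC 10F at 60.7 TPM and the highest DG 20M at 3802 TPM, of which ZNF706 gave 1428 TPM, ZNF346 605 TPM, ZNF205 478 TPM and ZNF652 447 TPM. In CB 10F, at 3277 TPM, ZNF772 alone gave 1956 TPM. CA1 listed the most members but had a summed level near the middle. Of the 66 testable members, the region of the highest mean was DG for 12 (18.2%, other genes 12.1%), CB for 11 (16.7%, other genes 16.2%) and CA1 and TC for 10 each (15.2%, other genes 13.4% and 11.2%), so no region held most of the maxima.

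**Figure D3:**
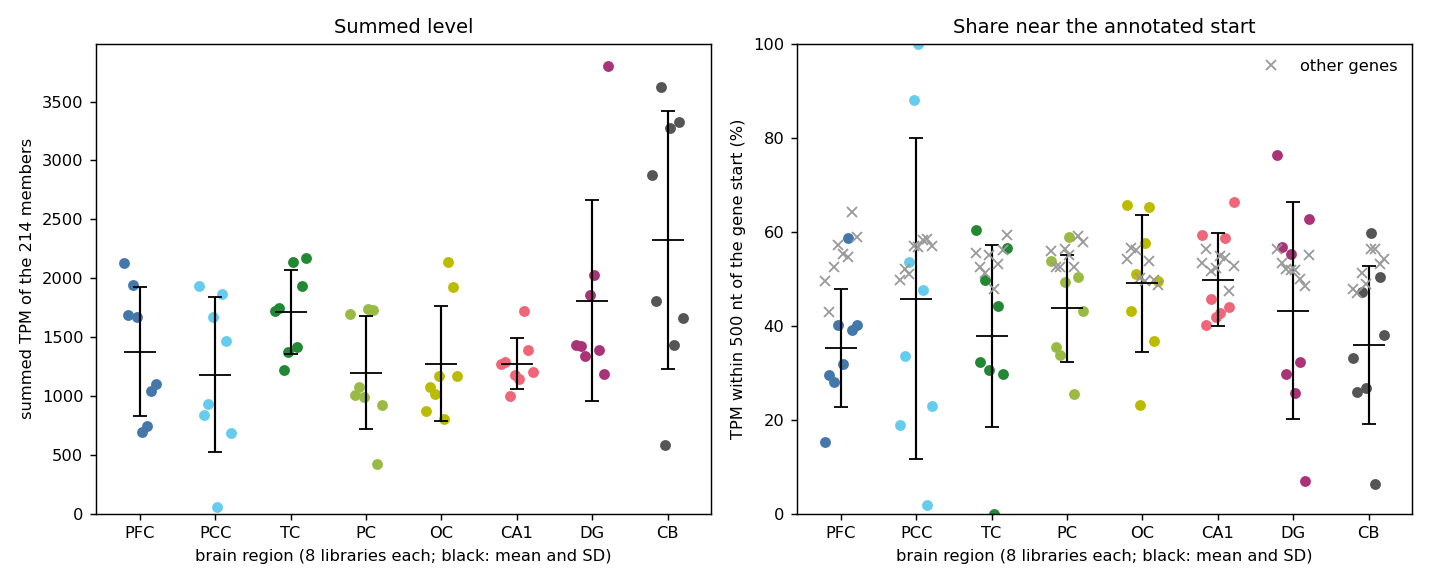
Left, summed TPM of the 214 members in each library by region. Right, percentage of the members' TPM within 500 nt of the annotated gene start (circles) and the same for the other genes (grey crosses). Black bars are the mean and SD of the members over 8 libraries. Summed levels overlap between regions, and the members' shares near the start spread from 0 to 100% while those of other genes stay between 43.0 and 64.1%.

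CB was compared with the other 7 regions to ask which members differ in the cerebellum. All tests were made with limma on log2(TPM + 1) over 6106 genes listed in at least 8 libraries, 66 of them members, and adjustment was by Benjamini-Hochberg, with 0.05 as the limit for a call. In CB, 1 of 66 members was called higher and 0 lower, where 0.802% of all genes tested were higher and 1.05% lower. The called member was ZNF219, a protein that binds GC-rich DNA and cooperates with SOX9 in cartilage. Its values in CB ranged from 0 through a median of 9.12 to 813 TPM and were above 0 in 4 of 8 libraries, namely 31.6 TPM in 1F, 18.2 in 1M, 813 in 4F and 73.1 in 20F. Of the other 56 libraries, 5 listed it, at 4.53 to 20.5 TPM, so the groups overlapped. The difference on the log2(TPM + 1) scale was 2.86 (SE 0.59, adjusted p = 0.000857), with CB higher in 4 of 8 animal groups, and CB 4F held 82.6% of the gene's TPM. With 5 libraries outside CB, the gene reached the 8 libraries needed for a test only through CB, where it was high. With only positions within 500 nt of the start it was no longer listed in 8 libraries, and 0 members were called. Quantile normalization called 4 members and a covariate for the number of genes listed 3. The calls over all genes in CB under these settings are not given here, so these counts are no result about the members.

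The next members by p were ZNF205 and ZNF444, and neither passed. ZNF205 was listed in 7 of 8 CB libraries, from 0 through a median of 94.5 to 192 TPM, and in 25 of the other 56. Its difference was 3.31 (SE 1.05, adjusted p = 0.0820). ZNF444 was listed in 4 CB libraries, at up to 22.6 TPM, with a difference of 1.45 (SE 0.46, adjusted p = 0.0820). Over the 66 members the median difference was -0.06, against -0.43 over all genes tested, and 9 members (13.6%) and 12.1% of all genes had an unadjusted p under 0.05.

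The hippocampus (CA1 and DG) was compared with the neocortex. There 3 of 66 members were called higher (4.55%) and 0 lower, and of all genes tested 8.21% were higher and 0.278% lower, so the members' share was below that of all genes, a difference that was not tested. The 3 were ZKSCAN1, ZNF106 and ZNF211, and the first 2 of these reached the 8 libraries needed for a test only through the hippocampus, where they were high. The 4 astrocyte markers had median sums of 703 TPM in CA1 and 753 TPM in DG and of 7.01 to 243 TPM in the neocortical regions. By means, GFAP made up most of the CA1 sum (667 TPM), and GFAP (433 TPM) and ALDH1L1 (336 TPM) that of DG. ALDH1L1 was lower in CA1 (41.7 TPM) than in PFC (90.0 TPM). AQP4 was lower in CA1 (10.7 TPM) and DG (0.309 TPM) than in PFC (13.8 TPM) and OC (14.4 TPM). SLC1A2 had 20.0 TPM in CA1 and 0 in DG. The 4 oligodendrocyte markers had 6799 TPM in CA1 and 2683 TPM in DG, against 974 to 2802 TPM in the neocortex, and the part of either in these differences was not tested. ZKSCAN1, a gene with both KRAB and SCAN domains that is known as the source of an abundant circular RNA, had levels in the 16 hippocampal libraries from 0 through a median of 13.9 to 236 TPM. It was listed in 9 of these and in 3 of 40 neocortical libraries, at 1.23 to 6.08 TPM. The difference was 2.88 (SE 0.42, adjusted p = 1.14e-06), with the hippocampus higher in 8 of 8 animal groups.

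ZNF211, a KRAB zinc finger gene in the chromosome 19 cluster, was listed in 7 CA1, 4 DG and 9 neocortical libraries. Its hippocampal values ranged from 0 through a median of 16.2 to 92.3 TPM and its neocortical values reached 46.3 TPM, so the groups overlapped. The difference was 2.18 (SE 0.60, adjusted p = 0.0133), higher in the hippocampus in 8 of 8 animal groups. ZNF106, an RNA-binding protein needed for motor and sensory neurons in mice, was listed in 10 of 16 hippocampal and 6 of 40 neocortical libraries. Its highest value, 155 TPM, was in the neocortical library PFC 20F. The difference was 2.09 (SE 0.57, adjusted p = 0.0125), with 7 of 8 animal groups higher. The median over members was 0.58, close to the 0.55 over all genes tested. With the number of genes listed per library as a covariate, or after quantile normalization, 1 member, ZKSCAN1, remained called. The calls over all genes in these 2 settings are not given here.

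CA1 was compared with DG, the 2 parts of the hippocampus. CA1 was higher for 13 of 66 members (19.7%) and lower for 0, and of all genes tested 18.6% were higher and 0.901% lower, so the members' share was near that of all genes. The 13 were ZKSCAN1, ZNF638, ZNF791, ZNF16, ZNF326, ZNF589, ZNF83, ZNF644, ZNF263, ZNF106, ZNF512, ZNF189 and ZNF462. Of these, 10 were listed at 0 in all 8 DG libraries. All but ZNF791, ZNF326 and ZNF106, again 10 members, reached the 8 libraries needed for a test only through CA1, so the count of 13 is not support for a difference over the members. Besides listing more genes than DG, CA1 had more oligodendrocyte marker RNA. The 4 markers summed to 4722 to 8091 TPM in CA1 libraries and to 723 to 4047 TPM in DG. Most of either sum was MBP (means of 6445 and 2548 TPM), while MOG was lower in CA1 (45.9 TPM) than in DG (75.5 TPM). The part of the markers in these differences was not tested. With the number of genes listed as a covariate 2 members were called, ZKSCAN1 and ZNF791, and after quantile normalization 1, ZNF791, while the calls over all genes went from 1188 to 173 and 247. The median difference over members went from 1.24 to 0.34 and 0.02.

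ZNF791 had the largest called difference between CA1 and DG. It was listed in 7 of 8 CA1 libraries, from 0 through a median of 48.3 to 136 TPM, and in 1 DG library, at 4.14 TPM. Every listed CA1 value was above that DG value. The difference was 4.61 (SE 1.04, adjusted p = 0.00108), in the same direction in 7 of 8 animal groups. It was also listed in 11 neocortical libraries, at up to 178 TPM in PC 20F, and in no CB library.

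ZKSCAN1 was listed in all 8 CA1 libraries, from 10.2 through a median of 27.6 to 92.3 TPM, and in 1 DG library, DG 1M, at 236 TPM. That library was above every CA1 library and the other 7 DG libraries were at 0, so the means of 40.4 ± 30.4 TPM in CA1 and 29.5 ± 83.4 TPM in DG (SD, n = 8) were close. The difference on the log2 scale was 4.05 (SE 0.71, adjusted p = 3.97e-05), in 7 of 8 animal groups, and 4.82 without the 1-yr-old males. With only positions within 500 nt of the start, ZKSCAN1 was listed in too few libraries to be tested in either comparison where it was called. The same held in CA1 against DG for ZNF638, ZNF16, ZNF326, ZNF589, ZNF83, ZNF644 and ZNF263.

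ZNF638, a protein that silences unintegrated retroviral DNA together with the HUSH complex, was listed in 8 of 8 CA1 libraries, from 1.40 through a median of 18.8 to 31.7 TPM, and at 0 in DG (adjusted p = 0.000813). Its highest values were elsewhere, at 184 TPM in TC 20M and 127 TPM in OC 20M. ZNF106 was listed in 7 CA1 libraries, with a median of 27.1 and up to 62.1 TPM, and in 3 DG libraries, at 1.38 to 39.3 TPM (difference 2.92, SE 0.96, adjusted p = 0.0245). ZNF83, with 6 CA1 libraries at 2.30 to 36.9 TPM, was at 0 in DG (adjusted p = 0.0105). Its highest value was 260 TPM in CB 4F. Among the other called members, ZNF644 is a partner of the histone methyltransferase EHMT2 and ZNF326 a splicing factor. They were listed in 4 and 6 CA1 libraries, with means of 11.1 ± 18.8 and 11.7 ± 11.8 TPM.

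**Figure D4:**
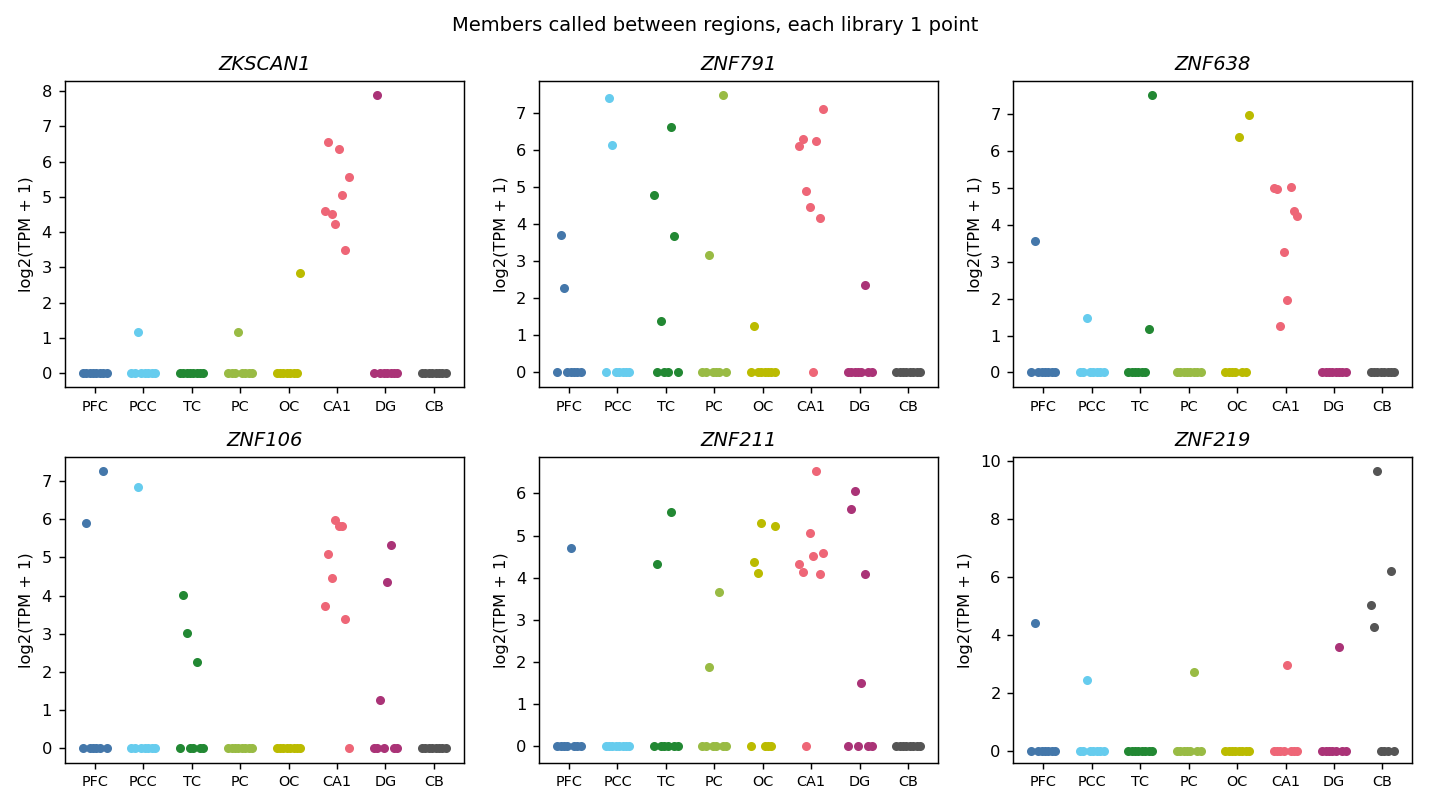
Level of 6 members called between regions, as log2(TPM + 1), with 1 point per library and 8 per region. ZKSCAN1 is above 0 in all 8 CA1 libraries and in DG 1M but in only 3 neocortical libraries, and ZNF219 is above 0 in 4 CB libraries.

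The ZKSCAN and ZSCAN genes were few and mostly rare. Of the 14 with a position, 4 were listed in at least 8 libraries and 7 in 1 library. ZSCAN21 (chromosome 3, plus strand, 47325196 to 47350553) was listed in 25 libraries at a mean of 16.1 ± 34.9 TPM, and ZKSCAN1 lay beside it at 47290592 to 47313180 on the same strand, 12016 nt away. The neighbours differed in where they were listed. ZSCAN21 was listed in 4 PFC, 5 TC, 6 CA1 and 4 CB libraries and in no DG library, while ZKSCAN1 was in no PFC, TC or CB library. The start of ZSCAN21 was its main position, in 12 libraries. Its gene overlaps ZNF3 on the opposite strand, which was listed in 2 libraries. ZSCAN18 on chromosome 19 was listed in 22 libraries at 17.4 ± 39.7 TPM, with its highest mean in CB, 49.3 ± 71.1 TPM (SD, n = 8). ZSCAN26 on chromosome 4 was listed in 11 libraries at 4.99 ± 19.8 TPM and reached 133 TPM in TC 1M. ZSCAN18, ZSCAN21 and ZSCAN26 were not called in any comparison.

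The older animals (10 and 20 years) were compared with the younger (1 and 4 years) with each animal group averaged over its 8 regions. No member was called, with 0 of 66 higher and 0 lower, where 0.0164% of all genes tested were higher and 0.0655% lower, and 6 members (9.09%) and 8.97% of all genes had an unadjusted p under 0.05 in limma. The smallest p belonged to ZNF274, which recruits the methyltransferase SETDB1 to other zinc finger genes. It was listed in 9 of 32 libraries of the younger and 4 of 32 of the older animals. Animal-group means were 7.09, 2.76, 10.4 and 81.3 TPM in 1F, 1M, 4F and 4M and 0, 1.05, 0.883 and 0.649 TPM in 10F, 10M, 20F and 20M. The younger groups were all above the older ones, with a difference of -1.13 (SE 0.45, adjusted p = 0.468), and 60.1% of the gene's TPM was in PCC 4M. ZNF207, a protein of the mitotic spindle checkpoint, had group means of 1.34 to 10.1 TPM in the younger and 0 to 0.628 TPM in the older animals (difference -0.77, SE 0.34, adjusted p = 0.495). ZNF398 was higher in the older animals by 0.95 (SE 0.40, adjusted p = 0.483), with overlapping groups and 62.5% of its TPM in CB 20F. The median over members was -0.17, against -0.30 over all genes.

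Males were compared with females in the same fit. Again 0 of 66 members were called higher and 0 lower, as were 0% of all genes tested in either direction, and 3 members (4.55%) and 4.93% of all genes had an unadjusted p under 0.05. ZNF777 had the smallest p, with a difference of -2.0 (SE 0.69, adjusted p = 0.896). It was listed in 17 of 32 female and 10 of 32 male libraries. Its group means were 42.7, 84.3, 14.8 and 52.9 TPM in the females of 1, 4, 10 and 20 years and 9.76, 20.8, 3.88 and 1.0 TPM in the males. The male mean was the lower at all 4 ages, although the 4-yr-old males were above the 10-yr-old females. ZNF189 (adjusted p = 0.962) and ZNF16 (adjusted p = 0.962) followed, each lower in males in 3 of 4 ages.

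**Figure D5:**
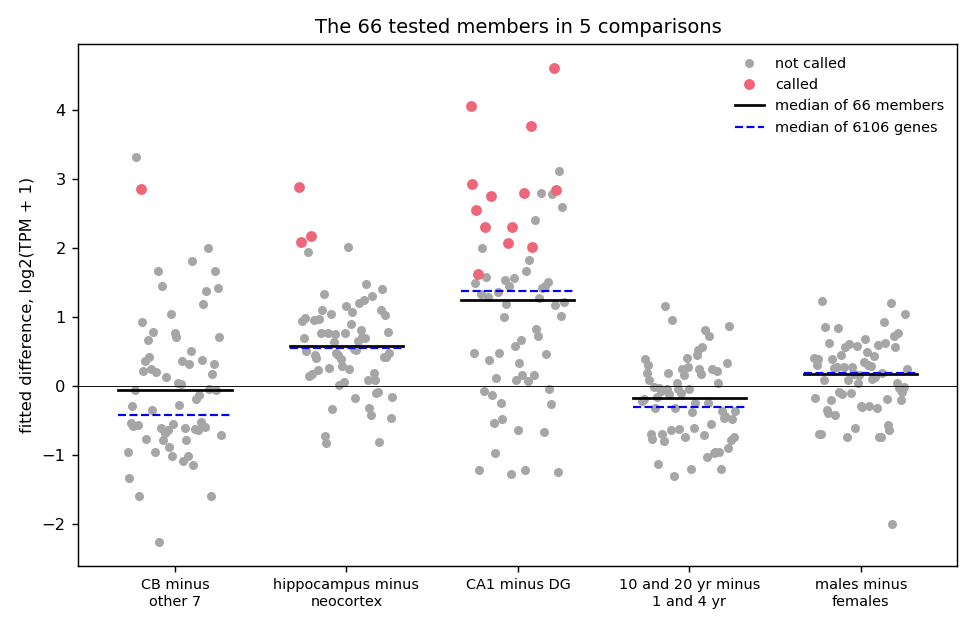
Fitted difference on the log2(TPM + 1) scale of each of the 66 testable members in the 5 comparisons, with called members in red, the members' median as a black line and the median of 6106 genes as a dashed blue line. Called members appear in the region comparisons, 1 in CB, 3 in the hippocampus and 13 in CA1, and none by age or sex.

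Of 30 genes of the machinery that KRAB proteins recruit, 25 had a position and 9 of these (36.0%) could be tested. The median gene of the 25 was listed in 4 libraries, near the 3 of the members, and a few were listed widely. MPHOSPH8, a subunit of the HUSH silencing complex, was listed in 62 libraries at 167 ± 148 TPM. CHD3, a remodeller of the NuRD complex, had 97.3 ± 378 TPM in 46 libraries, and EHMT2, which methylates histone H3, 76.9 ± 104 TPM in 46. TRIM28, the corepressor that the KRAB domain binds, was listed in 17 libraries at 14.8 ± 37.3 TPM. The share of TPM within 500 nt of the start was 86.2% for MPHOSPH8, 24.6% for TRIM28, 1.41% for EHMT2 and 0% for CHD3. Between CA1 and DG 3 of the 9 were called, all higher in CA1, as were 18.6% of all genes tested: the histone-binding proteins RBBP7 (5 CA1 libraries, 0 in DG, adjusted p = 0.00749) and RBBP4 (7 and 0, adjusted p = 0.0147), and the heterochromatin protein CBX5 (8 and 1, adjusted p = 0.00926). RBBP7, listed in 11 libraries in all, 5 of them CA1, reached the 8 needed for a test only through CA1. None of the 9 was called in the other 4 comparisons. The list's median difference between CA1 and DG was 2.13, against 1.37 over all genes, and the 2 medians were not tested against each other.

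Other zinc finger transcription factors were compared in the same way, 10 of 48 C2H2 factors and 8 of 41 BTB zinc finger genes being testable. SCRT1, a neuronal repressor of the Snail family, was listed in all 64 libraries at 244 ± 447 TPM, which no member was. It was lower in the hippocampus than in the neocortex by -2.35 (SE 0.58, adjusted p = 0.00539), while FEZF2, a factor of deep-layer projection neurons, was higher by 2.13 (SE 0.44, adjusted p = 0.000826). FEZF2 was listed in 11 hippocampal, 6 neocortical and 0 CB libraries, so it reached the 8 needed for a test only through the hippocampus. In CA1 against DG the C2H2 factors PRDM2, ZEB1, ZEB2 and FEZF2 were higher, 4 of 10 where 18.6% of all genes were, with differences of 2.40 to 5.30. Within 500 nt of the start lay 0% of the TPM of PRDM2 and ZEB1, 11.7% for ZEB2 and 18.1% for FEZF2. For SCRT1 the share was 100%. ZEB1, listed in 13 libraries in all, 7 of them CA1, reached the 8 needed for a test only through CA1. ZEB2 had 94.0 ± 35.3 TPM in CA1 and 13.1 ± 35.0 TPM in DG (SD, n = 8). BCL11A had 31.1 ± 84.7 TPM in 28 libraries and was not called. Of the BTB genes, which recruit corepressors through another domain, ZBTB16 and ZBTB20, 2 of 8, were higher in CA1, where the same 18.6% of all genes applies (differences 3.65, SE 1.05, and 2.75, SE 0.97). The share of TPM within 500 nt of the start was 5.30% for ZBTB16 and 0.535% for ZBTB20. ZBTB47, at 29.6 ± 58.9 TPM in 35 libraries, and ZBTB17, at 18.4 ± 54.1 TPM in 17, were not called. How the CA1 calls of the 3 lists fare with the gene-number covariate or quantile normalization was not examined. By age and by sex, 0 genes of the 3 lists (9, 10 and 8 tested) were called in limma. The unadjusted limma p was under 0.05 for 1 of them by age and 3 by sex, where it was for 8.97% and 4.93% of all genes.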

How the data were processed

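CAGE-seq libraries had been prepared by the authors from poly(A) RNA and aligned to the MMUL 1.0 genome with TopHat2, allowing 2 mismatches and keeping uniquely mapped reads. The 5′ ends of at least 0.5 TPM and less than 20 nt apart were joined. The deposited values, called TPM, are RPM values, scaled by the authors to the tags of each library without length correction. Positions were set against the gene starts deposited with them. Library sizes were not used here, and the spread between animal groups may be partly technical.

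The members and gene lists were chosen with earlier results of these data known. Symbols came from a name table (10069 of 13269 genes matched). TPM were summed per gene, and log2(TPM + 1) of the 6106 genes reaching 1 TPM in 8 or more libraries was compared with limma 3.58.1 in R 4.3.3 (two-sided, intensity trend). Region comparisons used all 64 libraries with region and animal group as terms. Libraries of an animal group came from the same animals, hence the replicate block. Age and sex were compared on 8 animal-group means with age and sex as terms. The fits were run on simulated data with known changes, most of which were not called. The simulation gave every library the same depth and no animal-group effect, while the real libraries listed 545 to 8143 genes. It therefore does not tell how many real changes are missed. A missing call does not show that a gene did not differ. Fold changes on this scale understate changes of low genes.

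Genes named are the 12 members of highest mean level, called members (the 5 largest of a comparison with more than 10), the 3 smallest p per comparison, members listed in at least 32 libraries, the 3 highest and 3 lowest shares near the start among members in at least 8 libraries (equal shares ordered by mean level), ZKSCAN and ZSCAN genes in at least 8 libraries, and, of each list, called genes (up to 4) and the 3 of highest mean. ZNF644 and ZNF326, the other called members listed by name, and the genes giving the level of a single library were described after their values were seen. Alternatives were another pseudocount, no filter, quantile normalization, positions near the start or of at least 2 TPM, left-out libraries, a gene-number covariate, and fits with and without the replicate block. The software was Matplotlib 3.10.9, pandas 2.3.3, NumPy 2.4.6 and Python 3.11.15. Sequences are not analysed here.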

Additional observations from a re-analysis of the deposited data

Results flagged for a closer look

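In 24 groups of 8 libraries (the members' summed TPM, the number of members listed and the share near the start, in each region), 2 libraries stood apart by Dixon's criterion at the 95% level, where chance alone flags about 1 in 20 groups. The summed TPM of the members in DG 20M was 3802 against a DG median of 1430, the gap to the next library being 0.679 of the range. The number of members listed in DG 10M was 43 against a DG median of 15.5, with a gap of 0.556 of the range. That library also listed the most genes of any kind in DG, 3898, followed by DG 10F with 2480, so the flag is not particular to the members.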

How the results depend on the processing

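After quantile normalization the members called were 4 in CB, 1 in the hippocampus and 1 in CA1, and with the number of genes listed as a covariate 3, 1 and 2, against 1, 3 and 13. In CA1 the calls over all genes fell in both settings as well, as given above. For the other counts here the calls over all genes are not given. These counts therefore show only how stable the members' own calls were. With no filter, all 214 members among 13269 genes were tested, not 66 among 6106, so its counts are not like for like. They were 6 in the hippocampus and 29 in CA1. With positions within 500 nt, where ZNF219 could not be tested, the count in CB was 0. Leaving out 1 animal group gave 1 to 2 in CB (2 without 4M, 10F or 10M), 2 to 5 in the hippocampus (5 without 20M) and 9 to 18 in CA1. Chosen after seeing the data, a fit without CB 10F, PCC 10F and CA1 20F called 3 in CB. Without the replicate block the counts were 1, 3 and 13, and with the replicate block as a random effect in the age and sex fits 0, as under every other setting of these 2 comparisons. Positions within 500 nt gave summed member levels of 642 TPM in all libraries, 642 in CA1 and 955 in CB, with 28.6 members listed in CA1 and 8 in CB. Within 100 nt of the start lay 34.2% of the members' TPM in CA1 and 18.2% in CB. Of 277 refits of called members 218 kept the call, 59 lost it and 0 turned, and in 12 more the member was listed in too few libraries to be tested (10 with positions within 500 nt, 2 with positions of at least 2 TPM). The cause was not tested.

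Each region of an age and sex has 1 library, so region differences rest on 8 animal groups and age and sex on 8 means. Listing starts at 2 to 7 tags, so rarer members are not seen. A planned count test was not run. Within 0.015 TPM, 91.2 to 100% of the values of a library were whole multiples of 1 tag, but the size of that tag was an estimate, since no value stands for 1 tag.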
